A study of Mus musculus with 8 samples.

Results

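The tumour necrosis factor (TNF) ligand and receptor superfamilies were followed in activated mouse microglia cultures treated with an antagonist of the adenosine A2A receptor, with or without an agonist of the A3 receptor. Members were the protein-coding genes whose symbol begins with Tnfsf (ligands) or Tnfrsf (receptors) and that were listed, by the same gene identifier, in both deposited expression tables. This rule found 32 genes, 12 ligands and 20 receptors, among the 31406 genes of the table that compares both treatments, of which 30302 were held by both tables. The rule used names and not expression values. TNF itself, CD40, Fas and other family proteins carry symbols without these letters and were therefore no members; they are described with the rest of the pathway.

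The cultures were primary striatal microglia from neonatal wild-type C57/BL6 mice, kept for 15 days and then activated over 48 h by lipopolysaccharide (LPS, 0.01% v/v) together with interferon-γ (0.002% v/v). Adenosine receptor ligands were added at 24, 32 and 40 h. The 4 libraries of the A2A antagonist group received SCH 58261, and the 4 libraries of the dual group received both SCH 58261 and the selective A3 receptor agonist 2-Cl-IB-MECA (at 200 nM). SCH 58261 was, by the study's description, used at the same concentration as the agonist. Activation and SCH 58261 were thus common to both groups, which differed by their titles in the added agonist; activated cultures without ligands were not analysed here. The groups were taken from the sample titles. The treatment field of the labels is opposite to the titles, naming 2-Cl-IB-MECA for the libraries titled SCH 58261 alone and omitting it for the others, so each direction given here rests on the titles, which the column names of the deposited table follow. The methods list human interferon-γ. They give fewer ligand-treated replicates than the titles, whereas a figure legend of the study gives the number in the titles. No label ties a library to a litter, culture or date, and p-values therefore measure the spread between these libraries, which may be technical.

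As background, ligands of this superfamily are mostly membrane proteins that act as trimers and can be shed, and their receptors assemble beneath the membrane with adaptor proteins that activate NF-κB and MAP kinases or, through a death domain, caspases. Several receptors are decoys that hold a ligand without signalling. In the brain, microglia are a main source of TNF, TNF receptor 1 is widespread, and TNF receptor 2 is largely a receptor of microglia and other immune cells.

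The A2A antagonist libraries held 38427491 to 45878639 counts and the dual libraries 32630602 to 45544451, and members took 0.0704% to 0.0736% of them. The summed level of 10 microglial marker genes was 597 to 669 FPKM (counts scaled to gene length and library size, as deposited) in the A2A antagonist group and 546 to 586 FPKM in the dual group. C1qa alone made up 67.1% to 71.7% of this sum, and without it the other 9 markers summed to 184 to 191 FPKM and 178 to 193 FPKM, with overlap between groups. The homeostatic marker P2ry12 lay between 0.573 and 0.975 FPKM. Summed levels of 8 astrocyte markers were 1046 to 1137 FPKM over all libraries, above those of the microglial markers, and 6 fibroblast markers reached 280 to 352 FPKM. Defining genes of T cells summed to at most 0.0925 FPKM and those of B cells to at most 0.343 FPKM. The libraries therefore hold RNA of several glial and stromal cell types, and in such bulk samples fewer cells of a type and less RNA per cell cannot be told apart.

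Receptors were more abundant than ligands. In every library the 20 receptors summed to between 211 and 222 FPKM, and the 12 ligands to between 15.0 and 18.0 FPKM. Of the 32 members, 19 had a median level of at least 1 FPKM over the 8 libraries (14 receptors and 5 ligands), and all 6 with at least 10 FPKM were receptors. The highest were the TNF receptors, Tnfrsf1a (TNF receptor 1, with a death domain) at a median of 74.0 FPKM and Tnfrsf1b (TNF receptor 2, without one) at 41.7 FPKM, which together made up 52.4% to 56.8% of the receptor sum. Next came Tnfrsf12a (Fn14, the TWEAK receptor) at 25.3 FPKM. Tnfrsf11b (osteoprotegerin, a secreted decoy for RANK ligand) followed at 15.5 FPKM and Tnfrsf19 (TROY) at 14.7 FPKM, and the ranges of these last receptors over the libraries overlapped, so their order is not resolved. Tnfrsf21 (death receptor 6) at 10.9 FPKM and Tnfrsf14 (HVEM) at 9.08 FPKM completed the upper part of the order, with ranges that did not overlap with those of their neighbours.

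Below these, Tnfrsf10b (the TRAIL receptor with a death domain) had a median of 5.16 FPKM and Tnfrsf23 (a decoy TRAIL receptor) 3.87 FPKM. Tnfrsf9 (4-1BB), Tnfrsf11a (RANK), Tnfrsf18 (GITR) and Tnfrsf22 (a decoy TRAIL receptor) had medians from 3.38 down to 1.83 FPKM with overlapping ranges between neighbours. Tnfrsf13b (TACI) was at 1.35 FPKM. Tnfrsf4 (OX40), Tnfrsf26, Tnfrsf8 (CD30) and Tnfrsf25 (death receptor 3) had medians between 0.325 and 0.692 FPKM. The other receptors of B-lineage cells, Tnfrsf13c (BAFF receptor) at 0.0538 FPKM and Tnfrsf17 (BCMA) at a median of 0, were the lowest.

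Among the ligands, Tnfsf12 (TWEAK) and Tnfsf10 (TRAIL) had the highest medians, 3.80 and 3.11 FPKM, with overlapping ranges, and Tnfsf9 (4-1BB ligand) at 2.55 FPKM overlapped with Tnfsf10. Tnfsf11 (RANK ligand) was at 1.79 FPKM and Tnfsf18 (GITR ligand) at 1.20 FPKM. From there the medians declined through Tnfsf13b (BAFF, 0.965 FPKM), Tnfsf14 (LIGHT, 0.774 FPKM), Tnfsf13 (APRIL, 0.634 FPKM), the readthrough gene Tnfsfm13 (0.482 FPKM), Tnfsf8 (CD30 ligand, 0.275 FPKM) and Tnfsf15 (TL1A, 0.238 FPKM), each overlapping with the next. Tnfsf4 (OX40 ligand) was at 0.0153 FPKM. Several ligands were thus well below their receptors, as for TWEAK and Fn14. In contrast Tnf, which is no member by its symbol, was at a median of 38.1 FPKM, above each ligand of the family named Tnfsf. Tnfsf12 and Tnfsf13 share exonic bases with Tnfsfm13, where reads could not be assigned. The levels of these genes may be understated, and their places in the order are uncertain.

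**Figure D1:**
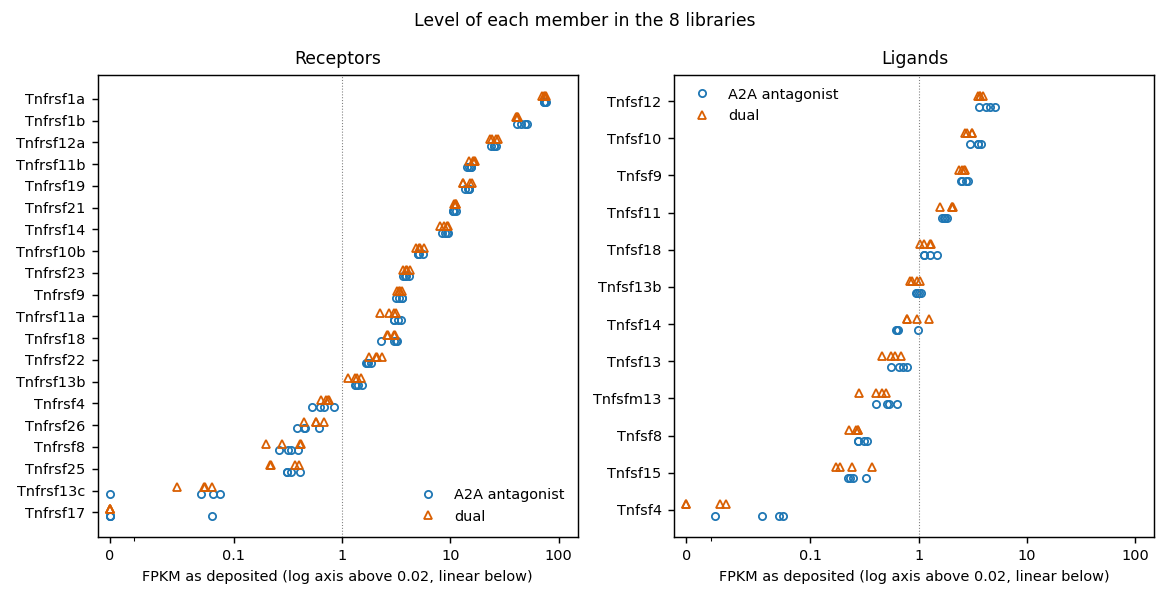
Deposited FPKM of the 20 receptors (left) and 12 ligands (right) in each of the 8 libraries, on a logarithmic axis that is linear below 0.02; circles are A2A antagonist libraries, triangles dual libraries, and the dotted line is 1 FPKM. Receptors span from 0 to 76.9 FPKM with Tnfrsf1a highest, and ligands stay at or below 5.05 FPKM.

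The comparison of the dual with the A2A antagonist group asks what the A3 agonist adds to A2A blockade. Of the 32 members, 29 (11 ligands and 18 receptors) had enough counts for the test, the quasi-likelihood test of edgeR on counts of all 18756 genes that passed the filter, with p-values adjusted over all of them by Benjamini and Hochberg. None of the 29 had an adjusted p under 0.05, the smallest being 0.145, whereas 0.208% of all genes did, 39 genes of which 9 were higher and 30 lower in the dual group. At an unadjusted p under 0.05, 6 of the 29 members passed, to be read against 12.8% of all genes. Of these, 4 were lower in the dual group (6.81% of all genes) and 2 were higher (5.98% of all genes). In no tested member were the 4 libraries of one group all above or all below the 4 of the other on CPM (counts scaled to library size with TMM factors), while 4.06% of all genes were without overlap lower and 3.36% without overlap higher in the dual group.

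The sizes of these differences were small. The median log2 fold change (dual relative to A2A antagonist) was -0.11 over the 11 tested ligands, of which 9 had a value below 0. It was -0.0056 over the 18 tested receptors, of which 10 did. Over all 18756 genes tested it was 0.0038, and 9092 had a value below 0. The 95% interval of the fold change lay within 1.5-fold in either direction for 22 of the 29 members and within 1.25-fold for 14. The 7 members whose intervals reached beyond 1.5-fold were Tnfrsf25, Tnfrsf26, Tnfsf8, Tnfsf13, Tnfsf14, Tnfsf15 and Tnfsfm13. All had a median under 1 FPKM, and for these a change of that size lies within the interval. The 23 members without an unadjusted p under 0.05 had log2 fold changes between -0.34 and 0.41. Leaving out replicate 1 of the A2A antagonist group gave 1 called member, Tnfrsf1b, and 172 called genes in all; leaving out replicate 4 of that group or replicate 3 of the dual group gave 0 called genes, and leaving out replicate 2 or replicate 3 of the A2A antagonist group gave 5 and 6.

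**Figure D2:**
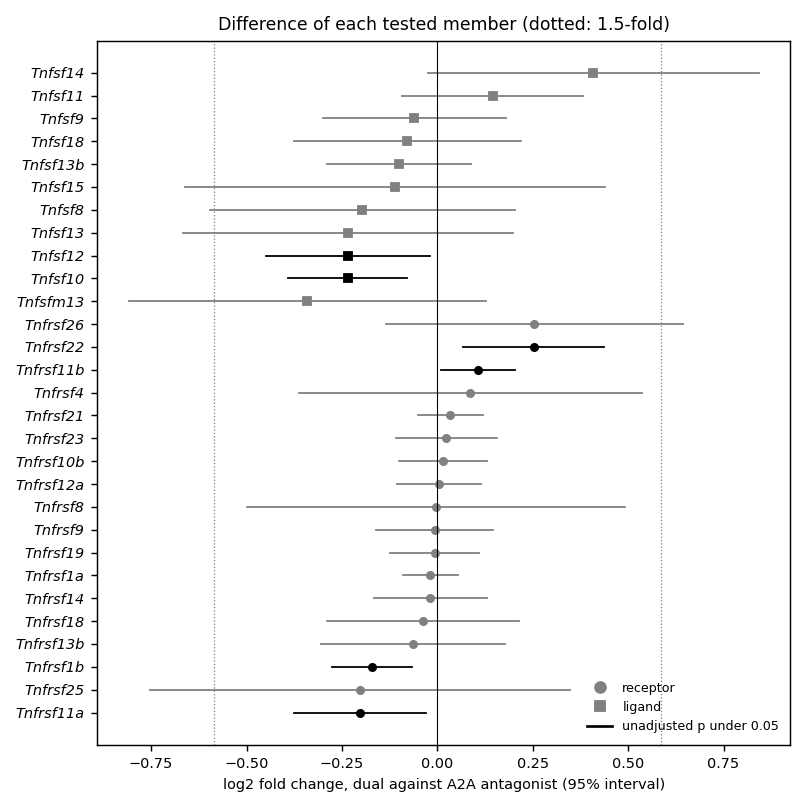
Log2 fold change of the dual against the A2A antagonist group, with its 95% interval from the edgeR fit, for the 29 tested members; squares are ligands, circles receptors, black marks those with an unadjusted p under 0.05, and dotted lines stand at 1.5-fold. Most intervals of the abundant receptors are narrow and near 0. Those of the scarce ligands and of Tnfrsf4, Tnfrsf8, Tnfrsf25 and Tnfrsf26 are wide, and 6 intervals exclude 0 before adjustment.

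TNF signals through Tnfrsf1a and Tnfrsf1b. Of these, Tnfrsf1b (ENSMUSG00000028599, chr4:145213463-145246870 on the minus strand of mm10) had the smallest p of the family. Its level in A2A antagonist replicates 1 to 4 was 159, 172, 188 and 196 CPM, and in the dual replicates 158, 163, 158 and 156 CPM. The dual libraries lay close together at the low end of a wider A2A antagonist range, with replicate 1 of the A2A antagonist group among them. The mean was 179 ± 16.7 CPM (SD, n = 4) in the A2A antagonist group and 159 ± 3.09 CPM (n = 4) in the dual group. The log2 fold change was -0.17 (SE 0.05, 95% interval -0.28 to -0.07), with an unadjusted p of 0.00292 and an adjusted p of 0.145 by edgeR's quasi-likelihood test. This adjusted p ranged from 0.0107 to 0.403 over the alternatives tried: it was 0.0395 by DESeq2, 0.0107 without a filter on low counts and 0.0198 without replicate 1 of the A2A antagonist group.

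Tnfrsf1a (ENSMUSG00000030341, chr6:125349362-125362484, plus strand) was at 191, 200.3, 190 and 196 CPM in the A2A antagonist replicates and at 198, 193, 193 and 183 CPM in the dual replicates. The ranges of the groups overlapped broadly. Its log2 fold change was -0.018 (SE 0.03, 95% interval -0.09 to 0.05), and it turned to 0.0026 without replicate 4 of the dual group. Within a library the ratio of both receptors does not depend on scaling. Tnfrsf1b stood at 0.566 to 0.678 of the Tnfrsf1a level in the A2A antagonist group and at 0.541 to 0.576 in the dual group, both in FPKM. The log2 ratio of counts differed by -0.15 between groups, from -0.13 ± 0.14 to -0.27 ± 0.04 (SD, n = 4 each), with p = 0.114 by a two-sided exact permutation test and 0.343 after adjustment over the 3 ratios tested; the smallest p that 4 against 4 libraries allow is 0.0286. Replicate 1 of the A2A antagonist group lay within the dual range of this ratio, and the other 3 replicates lay above it.

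The promoters of both TNF receptor genes are shown because they are the most abundant members and because every culture received interferon-γ. The methods list that interferon-γ as human, and whether it acted on these mouse cells was not tested here. Each window runs from 250 bases before to 50 bases after the start of the gene in RefSeq on GRCm38.p6, Tnfrsf1b at chr4:145246821-145247120 on the minus strand and Tnfrsf1a at chr6:125349473-125349772 on the plus strand. Capitals mark matches, found on both strands, to a gamma-activated site (GAS, TTCNNNGAA, bound by STAT dimers) and to an interferon-stimulated response element (ISRE, bound by IRF proteins and STAT complexes).
Tnfrsf1b: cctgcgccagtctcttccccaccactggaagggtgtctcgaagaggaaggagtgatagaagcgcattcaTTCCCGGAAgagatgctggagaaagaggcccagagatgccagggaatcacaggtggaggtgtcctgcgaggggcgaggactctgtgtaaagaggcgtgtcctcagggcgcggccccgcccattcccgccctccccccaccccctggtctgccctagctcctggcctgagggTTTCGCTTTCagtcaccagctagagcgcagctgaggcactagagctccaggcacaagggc
Tnfrsf1a: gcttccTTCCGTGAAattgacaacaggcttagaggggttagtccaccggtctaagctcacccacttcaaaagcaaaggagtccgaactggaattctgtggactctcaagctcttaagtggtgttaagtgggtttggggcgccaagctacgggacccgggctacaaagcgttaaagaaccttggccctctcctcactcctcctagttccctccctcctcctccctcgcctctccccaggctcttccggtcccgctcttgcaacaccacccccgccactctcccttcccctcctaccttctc

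In Tnfrsf1b the GAS match began at position -181 and the ISRE match at position -10 relative to the start site. In Tnfrsf1a the GAS match began at position -244. The RefSeq start of Tnfrsf1a lies downstream of the deposited gene start at chr6:125349362, so its whole window falls inside the deposited gene coordinates. RefSeq windows were found for 25 of the 32 members, 29 windows in all. The GAS letters were present in 6 of the 29 (Tnfrsf1a, Tnfrsf1b, Tnfrsf9, Tnfrsf18, Tnfrsf19 and Tnfrsf25) and in 8.3% of 32851 windows of all genes. The ISRE letters were present in 4 (Tnfrsf1b, Tnfrsf14, Tnfrsf17 and Tnfsf13b) and in 3.44% of all windows. A κB motif, whose letters were narrowed after a looser form had been seen to match a large share of all windows, was present in Tnfrsf8, Tnfrsf9 and Tnfrsf25 and in 8.46% of all windows. AP-1 letters (TGANTCA) were present in 6 windows of Tnfrsf8, Tnfrsf9, Tnfsf13, Tnfsf13b and Tnfsf14 and in 7.81% of all windows. These matches are descriptions of the letters only.

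**Figure D3:**
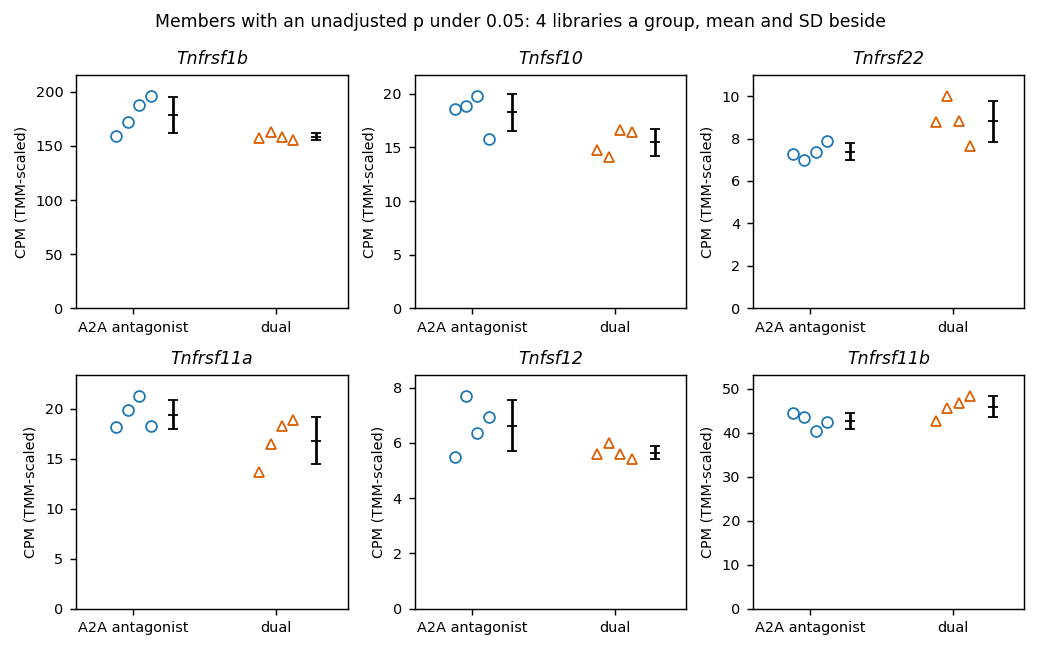
TMM-scaled CPM, from 0, of the 6 members with an unadjusted p under 0.05 in each of the 4 A2A antagonist libraries (circles) and 4 dual libraries (triangles, replicates 1 to 4 from left to right), with the mean and SD beside each group. Tnfrsf1b, Tnfsf10, Tnfrsf11a and Tnfsf12 have lower means in the dual group and Tnfrsf22 and Tnfrsf11b higher ones, and in each panel the groups overlap.

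The TRAIL system comprises the ligand Tnfsf10, the death receptor Tnfrsf10b and the mouse decoys Tnfrsf22 and Tnfrsf23. Tnfsf10 (ENSMUSG00000039304, chr3:27317028-27342427, plus strand) was at 18.6, 18.9, 19.8 and 15.8 CPM in the A2A antagonist replicates and at 14.7, 14.1, 16.6 and 16.4 CPM in the dual replicates. Replicate 4 of the A2A antagonist group lay within the dual range, and the other 3 lay above it. It differed by a log2 fold change of -0.23 (SE 0.07, 95% interval -0.39 to -0.08), with an unadjusted p of 0.00536 and an adjusted p of 0.173 by edgeR. The death receptor Tnfrsf10b was at 27.3 to 30.8 CPM in the A2A antagonist libraries and at 26.6 to 31.2 CPM in the dual libraries.

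Tnfrsf22 (ENSMUSG00000010751, chr7:143634806-143649661, minus strand) was at 7.28, 6.99, 7.37 and 7.90 CPM in the A2A antagonist replicates and at 8.80, 10.01, 8.82 and 7.62 CPM in the dual replicates. Of the dual libraries, 3 lay above each A2A antagonist library and replicate 4 did not. Its log2 fold change was 0.25 (SE 0.09, 95% interval 0.07 to 0.44), with an unadjusted p of 0.0103 and an adjusted p of 0.217 by edgeR. The neighbouring decoy Tnfrsf23 (chr7:143665809-143685872, minus strand), described for its likeness after its values were seen, was at 15.5 ± 0.782 CPM in the A2A antagonist group and 15.8 ± 0.955 CPM in the dual group (SD, n = 4 each), a log2 fold change of 0.023 (SE 0.06). The third gene of this cluster, the member Tnfrsf26, was also described after its values were seen. It differed by 0.25 on the log2 scale (SE 0.19, 95% interval -0.13 to 0.64) at 1.25 to 2.21 CPM.

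The division of reads between these decoys is uncertain to a degree that was not measured. Of all 31-base words in the annotated transcripts of Tnfrsf22, 25.5% occur also in Tnfrsf23, and 26.6% of those of Tnfrsf23 occur in Tnfrsf22. The longest identical stretch of their coding sequences is 102 bases, positions 421 to 522 of 597 in Tnfrsf22 and 391 to 492 of 531 in Tnfrsf23, shown here 5′ to 3′ from the GENCODE transcripts of release 21 to show how closely these genes are related. By the study's methods the sequenced reads were longer than this stretch. The shared words were counted over whole transcripts, and the longest stretch shared outside the coding sequences was not determined. Longer reads therefore need not resolve these genes, and the share of reads that could not be assigned was not measured.
Tnfrsf22 and Tnfrsf23: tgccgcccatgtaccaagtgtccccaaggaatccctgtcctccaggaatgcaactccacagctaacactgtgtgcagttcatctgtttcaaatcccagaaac

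The RANK system comprises the receptor Tnfrsf11a, its ligand Tnfsf11 and the secreted decoy Tnfrsf11b. Tnfrsf11a (ENSMUSG00000026321, chr1:105780718-105847981, plus strand) was at 18.2, 19.9, 21.3 and 18.3 CPM in the A2A antagonist replicates and at 13.6, 16.4, 18.3 and 18.9 CPM in the dual replicates. Dual replicates 1 and 2 lay below the A2A antagonist libraries and replicates 3 and 4 within their range. The log2 fold change was -0.20 (SE 0.08, 95% interval -0.38 to -0.03), with an unadjusted p of 0.0246 and an adjusted p of 0.302 by edgeR, and leaving out single libraries moved it between -0.26 and -0.12, the latter without replicate 1 of the dual group.

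Tnfrsf11b (ENSMUSG00000063727, chr15:54250619-54278484, minus strand) was at 44.5, 43.5, 40.4 and 42.5 CPM in the A2A antagonist replicates and at 42.7, 45.7, 46.9 and 48.3 CPM in the dual replicates. In the dual group 3 libraries lay above the A2A antagonist range. Its log2 fold change was 0.11 (SE 0.05, 95% interval 0.01 to 0.20), with an unadjusted p of 0.0350 and an adjusted p of 0.342 by edgeR. Tnfsf11 (ENSMUSG00000022015, chr14:78277445-78308043, minus strand) was at 3.71, 3.87, 3.97 and 4.07 CPM in the A2A antagonist replicates and at 4.54, 4.55, 3.55 and 4.69 CPM in the dual replicates. Dual replicate 3 was the lowest of the 8 libraries and the other 3 dual libraries were the highest. The log2 fold change of Tnfsf11 was 0.14 (SE 0.11, 95% interval -0.09 to 0.38), with an unadjusted p of 0.215 and an adjusted p of 0.639 by edgeR, and it was 0.23 without dual replicate 3. The decoy exceeded the ligand 8.06 to 9.53 times in the A2A antagonist group and 7.46 to 10.5 times in the dual group in FPKM. The log2 ratio of counts differed by -0.038 (exact permutation test, two-sided, p = 0.743, and 0.743 after adjustment over the 3 ratios), and its sign changed when single libraries were left out.

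TWEAK and its receptor are encoded by Tnfsf12 and Tnfrsf12a. Tnfsf12 (ENSMUSG00000097328, chr11:69686250-69695849, minus strand) was at 5.50, 7.70, 6.37 and 6.96 CPM in the A2A antagonist replicates and at 5.61, 5.99, 5.60 and 5.41 CPM in the dual replicates. Replicate 1 of the A2A antagonist group lay within the narrow dual range and the other 3 above it. This gave a log2 fold change of -0.23 (SE 0.10, 95% interval -0.45 to -0.02), with an unadjusted p of 0.0340 and an adjusted p of 0.339 by edgeR. Leaving out single libraries moved it between -0.31 and -0.15, the latter, with an unadjusted p of 0.160 by edgeR, without replicate 2 of the A2A antagonist group. Tnfrsf12a (ENSMUSG00000023905, chr17:23675445-23677468, minus strand) was at 49.6, 51.7, 48.8 and 46.6 CPM in the A2A antagonist replicates and at 54.0, 51.4, 46.8 and 45.6 CPM in the dual replicates. The dual libraries spread on both sides of the A2A antagonist range. Its log2 fold change of 0.0052 (SE 0.05, 95% interval -0.10 to 0.12) had no stable sign, at -0.0006 without the filter on low counts.

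Tnfsf12 is followed on the same strand of chromosome 11 by Tnfsf13 (APRIL, chr11:69682846-69685784), and the readthrough gene Tnfsfm13 (chr11:69682577-69696098) covers both. Tnfsfm13 shares 48.3% of the exonic bases of Tnfsf12 and 60.1% of those of Tnfsf13, so reads there could not be assigned to 1 gene. Tnfsf13 was at 1.09, 1.30, 1.17 and 0.925 CPM in the A2A antagonist replicates and at 1.13, 0.762, 1.00 and 0.925 CPM in the dual replicates, with a log2 fold change of -0.23 (SE 0.21, 95% interval -0.67 to 0.20). Tnfsfm13, again named with its values known, differed by -0.34 on the log2 scale (SE 0.22, 95% interval -0.81 to 0.13). The groups overlapped in both genes. An antisense gene, Tnfsf13os, covers 13.5% of the exonic bases of Tnfsf13, and as the strand used in counting is not given in the sources used here, its reads cannot be told apart either.

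BAFF and APRIL share the receptor TACI, and both sustain B-lineage cells. Tnfsf13b (BAFF, ENSMUSG00000031497, chr8:10006467-10039072, plus strand) was at 7.36, 6.88, 6.70 and 6.58 CPM in the A2A antagonist replicates and at 6.04, 5.78, 6.62 and 7.13 CPM in the dual replicates. Dual replicates 1 and 2 were the lowest libraries, and the other 2 lay within the A2A antagonist range. The log2 fold change was -0.10 (SE 0.09, 95% interval -0.29 to 0.09), with an unadjusted p of 0.276 and an adjusted p of 0.692 by edgeR. In deposited FPKM, BAFF exceeded APRIL 1.26 to 1.70 times in the A2A antagonist group and 1.27 to 1.84 times in the dual group. The readthrough gene Tnfsfm13 shares 60.1% of the exonic bases of Tnfsf13, where reads could not be assigned, whereas FPKM uses the full gene length. The APRIL level may thus be understated, and which of both is more abundant is not resolved. The log2 ratio of counts differed by 0.12 between groups (exact permutation test, two-sided, p = 0.486, and 0.729 after adjustment over the 3 ratios). When single libraries were left out, that difference was lowest, 0.048, on dropping A2A antagonist replicate 2 and highest, 0.23, on dropping dual replicate 1. TACI (Tnfrsf13b) was measured at 3.23 to 4.34 CPM over the 8 libraries.

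**Figure D4:**
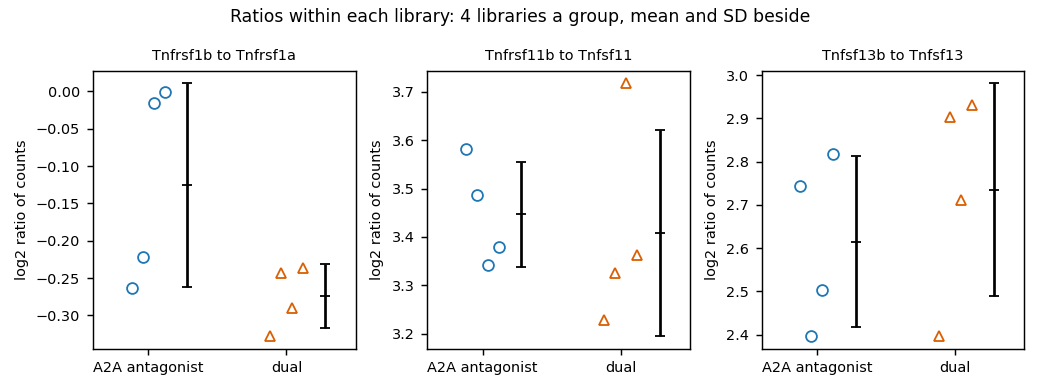
Log2 ratio of counts within each library for Tnfrsf1b to Tnfrsf1a, Tnfrsf11b to Tnfsf11 and Tnfsf13b to Tnfsf13, with 0.5 added to each count; circles are the 4 A2A antagonist libraries, triangles the 4 dual libraries, and bars the mean and SD, on axes that do not start at 0. The dual libraries are tight and low only in the first panel, where A2A antagonist replicate 1 lies among them, and in the other panels the groups cover each other.

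The remaining abundant members were close between groups. Tnfrsf19 (TROY, a receptor of neural and oligodendrocyte progenitors, ENSMUSG00000060548, chr14:60963875-61046490, minus strand) was at 69.9, 70.8, 70.3 and 64.8 CPM in the A2A antagonist replicates and at 63.0, 62.4, 75.6 and 72.8 CPM in the dual replicates. The dual libraries formed a low pair and a high pair around the A2A antagonist libraries. The log2 fold change of -0.0075 (SE 0.06, 95% interval -0.12 to 0.11) ranged from -0.06 to 0.03 when single libraries were left out. Tnfrsf21, known to bind a fragment of the amyloid precursor protein, lay between 43.4 and 46.7 CPM in all 8 libraries.

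The co-stimulatory ligands, best known from antigen-presenting cells, were low. Tnfsf9 (4-1BB ligand, ENSMUSG00000035678, chr17:57105325-57107757, plus strand) was at 3.22, 3.67, 3.57 and 3.24 CPM in the A2A antagonist replicates and at 3.25, 3.39, 3.05 and 3.45 CPM in the dual replicates, with a log2 fold change of -0.06 (SE 0.11, 95% interval -0.30 to 0.18). Tnfsf18 (GITR ligand, ENSMUSG00000066755, chr1:161494655-161505290, plus strand) was at 2.67, 2.33, 2.35 and 3.08 CPM in the A2A antagonist replicates and at 2.73, 2.16, 2.66 and 2.35 CPM in the dual replicates, with a log2 fold change of -0.08 (SE 0.14, 95% interval -0.38 to 0.22) that turned to 0.014 without replicate 4 of the A2A antagonist group. For both ligands the groups overlapped. Their receptors Tnfrsf9 and Tnfrsf18 ranged from 8.63 to 9.85 CPM and from 3.49 to 4.95 CPM over the 8 libraries. Of these genes, Tnfsf9 shares 14.9% and Tnfrsf18 27.2% of its exonic bases with a gene on the opposite strand.

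Tnfsf14 (LIGHT, a ligand of HVEM and the lymphotoxin β receptor, chr17:57189492-57194177, minus strand), added with its values known, had the highest log2 fold change of the tested members. It was at 1.84, 1.21, 1.17 and 1.15 CPM in the A2A antagonist replicates and at 1.44, 1.45, 2.33 and 1.81 CPM in the dual replicates. Replicate 1 of the A2A antagonist group stood apart from the other 3, above all dual libraries except replicate 3. Between groups the log2 fold change was 0.41 (SE 0.21, 95% interval -0.02 to 0.84), with an unadjusted p of 0.0630 and an adjusted p of 0.422 by edgeR, and leaving out single libraries moved it between 0.23 and 0.59, the latter without that replicate.

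The 3 members without enough counts for the test were Tnfrsf13c, Tnfrsf17 and Tnfsf4. Tnfrsf13c had 17 counts in the A2A antagonist group and 17 in the dual group, summed over 4 libraries each. Tnfrsf17 had 2 counts in 1 A2A antagonist library and 0 in the other 7 libraries; a count of 0 allows up to 3 counts, or 0.0654 to 0.0919 CPM depending on depth, for counting error only. Tnfsf4, which with OX40 forms a co-stimulatory pair of T cells, had 4, 1, 4 and 3 counts in the A2A antagonist replicates and 1, 1, 0 and 0 in the dual replicates, 12 against 2 in all. Without the filter on low counts its unadjusted p was 0.0725 and its adjusted p 0.553 by edgeR.

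Other genes of the pathway were described from 5 lists. Of 6 ligands with other symbols in the table, 5 could be tested, and of 8 receptors with other symbols, 27 adaptors and regulators, 9 subunits and inhibitors of NF-κB and 5 genes of shedding, all were tested. None had an adjusted p under 0.05, and none had an unadjusted p under 0.05 with a higher level in the dual group. At an unadjusted p under 0.05 with a lower level in the dual group there was 1 ligand (Tnf), 1 receptor (Cd40), 3 adaptors and regulators (Traf1, Tnfaip3 and Tnip1), 4 of the NF-κB list (Nfkbia, Nfkbib, Nfkbie and Rela) and 0 of the shedding list, beside 6.81% of all genes. Median log2 fold changes were -0.15, -0.05, -0.0041, -0.07 and 0.02 in this order of lists. In the NF-κB list 9 of 9 genes had a value below 0, beside 9092 of all 18756 genes tested. No list was tested as a set. The lists were chosen with earlier results of these data known, so their counts cannot be weighed against those of all genes.

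Tnf was at 62.9, 68.0, 64.7 and 69.5 CPM in the A2A antagonist replicates and at 50.6, 57.4, 56.5 and 63.1 CPM in the dual replicates. Only dual replicate 4 reached the A2A antagonist range. The log2 fold change was -0.22 (SE 0.05, 95% interval -0.33 to -0.10), with an unadjusted p of 0.000817 and an adjusted p of 0.0913 by edgeR. Cd40, the receptor through which T cells stimulate microglia and other antigen-presenting cells, was at 10.9, 10.5, 12.1 and 12.4 CPM in the A2A antagonist replicates and at 9.26, 9.38, 8.63 and 8.12 CPM in the dual replicates. All dual libraries lay below all A2A antagonist libraries. Its log2 fold change was -0.38 (SE 0.08, 95% interval -0.54 to -0.21), with an unadjusted p of 0.000127 and an adjusted p of 0.0541 by edgeR. Over the alternatives tried, the adjusted p of Cd40 by edgeR or DESeq2 ranged from 0.0031 to 0.179. The lowest came from edgeR without the filter on low counts. The highest came from edgeR without replicate 4 of the A2A antagonist group. In an edgeR fit to protein-coding genes only, the adjusted p of Cd40 was 0.0473.

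Of the genes named from these lists, Tnfaip3, Nfkbia, Nfkbie and Nfkbib had, like Cd40, lower values in each dual library than in each A2A antagonist library. Among all genes 4.06% did, but these were named for an unadjusted p under 0.05, so their separation partly follows from that choice. Nfkbiz, not so named, was also separated, at 192 to 195 CPM in the A2A antagonist group and 184 to 191 CPM in the dual group (unadjusted p = 0.154 by edgeR). None of them had an adjusted p under 0.05. Tnfaip3 (A20, an inhibitor that NF-κB induces) was at 179 to 195 CPM in the A2A antagonist group and at 165 to 174 CPM in the dual group, a log2 fold change of -0.16 (SE 0.04, adjusted p = 0.0606 by edgeR). Nfkbia (IκBα) was at 488 to 555 CPM and at 446 to 476 CPM, with a log2 fold change of -0.17 (SE 0.04, adjusted p = 0.0687 by edgeR). Nfkbie (IκBε) was at 122 to 124 CPM and at 109 to 119 CPM, with a log2 fold change of -0.12 (SE 0.04, adjusted p = 0.145 by edgeR). Nfkbib (IκBβ), which is not known for such induction, was at 44.4 to 46.3 CPM and at 37.9 to 42.1 CPM, with a log2 fold change of -0.16 (SE 0.04, adjusted p = 0.110 by edgeR); 14.5% of its exonic bases overlap Ccer2 on the opposite strand. The groups overlapped for Traf1 (log2 fold change -0.16, SE 0.04), Tnip1 (-0.11, SE 0.04) and Rela (-0.08, SE 0.04), with adjusted p of 0.110, 0.295 and 0.389 by edgeR.

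The death receptor Fas, with a median of 49.9 FPKM, had a log2 fold change of 0.02 (SE 0.04, 95% interval -0.07 to 0.11). Ltbr, the lymphotoxin β receptor, at 35.8 FPKM, had a log2 fold change of -0.06 (SE 0.05, 95% interval -0.16 to 0.04). Ngfr, the p75 neurotrophin receptor, at 0.424 FPKM, had a log2 fold change of -0.03 (SE 0.18, 95% interval -0.42 to 0.35). In median FPKM Fas thus lay between Tnfrsf1a and Tnfrsf1b and Ltbr between Tnfrsf1b and Tnfrsf12a, and the intervals of both lay within 1.25-fold.

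**Figure D5:**
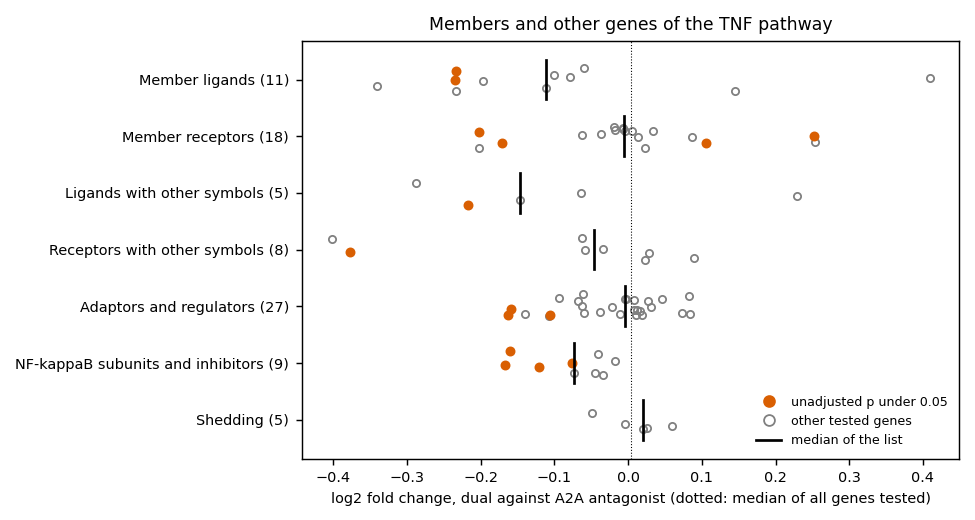
Log2 fold change of the dual against the A2A antagonist group for the tested members and for the 5 lists of other pathway genes, 1 point a gene; filled points have an unadjusted p under 0.05, vertical bars are list medians, and the dotted line is the median of all genes tested, 0.0038. Filled points of the NF-κB list and of the adaptors lie below 0, as do all 9 points of the NF-κB list and 9092 of all 18756 genes tested. None of the genes of these lists had an adjusted p under 0.05. The 5 lists were chosen with earlier results of these data known.

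Markers of the cell types, from lists also chosen with earlier results of these data known, were read beside these values. Of all genes, 6.81% were lower and 5.98% higher in the dual group at an unadjusted p under 0.05. Of the 10 microglial markers, 3 (C1qa, Aif1 and Fcrls) were lower and 1 (Csf1r) higher in the dual group at an unadjusted p under 0.05, and C1qa was the only marker called, with a log2 fold change of -0.24 (SE 0.04, adjusted p = 0.0240 by edgeR). At the same unadjusted threshold, 3 of the 6 fibroblast markers (Col3a1, Dcn and Lum) were higher, 2 of the 8 astrocyte markers (Slc1a2 and Gja1) were higher and 1 (Aldh1l1) was lower, and 1 oligodendrocyte lineage marker was higher (Cspg4) and 1 lower (Olig1). The 7 oligodendrocyte lineage markers summed to 193 to 208 FPKM in the A2A antagonist group and 175 to 193 FPKM in the dual group. None of the tested markers of endothelial cells, mural cells, neurons or proliferation had an unadjusted p under 0.05. Tnfrsf1b, Tnf and Cd40 are best known from myeloid cells, but which cells transcribed them in these cultures was not measured. The part of cell composition in their values was not tested.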

How the data were processed

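Raw counts and FPKM of the 8 libraries were taken from the table deposited for both treatments. Per the labels and the study's methods, the authors aligned paired reads with HISAT2 to the mouse genome (mm10), counted them per gene with featureCounts 1.5.0-p3, and computed the deposited FPKM from count and gene length with an adjusted library size. The deposited gene length, another value of that table, served only for TPM. The strand setting of the counting is not given in the sources used here. In the second table, the counts of the A2A antagonist libraries differed in 0 values; 9 columns of libraries not mapped to a sample here were not used, nor were the authors' fold changes and p-values.

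Counts were analysed in R 4.3.3 with edgeR 4.0.16 (filterByExpr with a minimum count of 10, TMM factors of 0.992 to 1.01, glmQLFit and glmQLFTest, two-sided, Benjamini-Hochberg over 18756 genes, threshold 0.05), without covariates. The method was tested on simulated data. The common biological coefficient of variation was 5.28%. Standard errors were derived from the F statistic. Levels between genes were compared in FPKM, levels between libraries in CPM. Ratios were tested over all 70 arrangements of the libraries. Replicates of a group differed by more than sampling noise (chi-square per degree of freedom 3.80 to 9.43).

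Members and gene lists were chosen with earlier results of these data known. Values in every library are given for members with an unadjusted p under 0.05, the 5 receptors and 5 ligands highest in median FPKM, and the genes of the ratios; Tnfsf14, Tnfsfm13, Tnfrsf23 and Tnfrsf26 were added after their values were seen. Alternatives were DESeq2 1.42.0, RLE factors, no low-count filter, protein-coding genes only, each library left out, and the replicate number as a block. Overlaps were computed from GENCODE release 21, in which all members have the deposited coordinates. Promoters came from RefSeq (GRCm38.p6).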

Additional observations from a re-analysis of the deposited data

Results flagged for a closer look

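Among the tested members, the 4 libraries of each group were examined for a single library far from the other 3, by the gap to its nearest neighbour over the range of the group (Dixon's criterion). This gave 3 such libraries in 58 groups, and chance gives about 1 in 20. Tnfrsf19 (TROY) was lowest in replicate 4 of the A2A antagonist group at 64.8 CPM, the other 3 being at 69.9 to 70.8 CPM. Tnfsf11 (RANK ligand) was lowest in replicate 3 of the dual group at 3.55 CPM, the other 3 being at 4.54 to 4.69 CPM. Tnfsf14 (LIGHT) was highest in replicate 1 of the A2A antagonist group at 1.84 CPM, the other 3 being at 1.15 to 1.21 CPM.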

How the results depend on the processing

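All genes called went from 39 to 381 by DESeq2, 366 without the low-count filter, 63 among protein-coding genes only, 17 with the replicate block, and 0 to 172 when single libraries were left out. Called members went from 0 to 1 by DESeq2 and without the filter, and were 0 to 1 when single libraries were left out; the member was Tnfrsf1b each time. Called pathway genes went from 0 to 7 by DESeq2 (Tnf, Cd40, Traf1, Tnfaip3, Nfkbia, Nfkbib and Nfkbie), 5 without the filter, 2 among protein-coding genes (Cd40 and Tnfaip3), and 0 to 4 when single libraries were left out (4 without replicate 1 of the A2A antagonist group, 1, Tnf, without replicate 4 of the dual group). Members with an unadjusted p under 0.05 numbered 4 to 7 over all alternatives, 5 of them with the replicate block, and RLE factors changed no call. Members at 1 or more were 19 in FPKM and 26 in TPM. With single libraries left out, signs changed for the log2 ratio of Tnfrsf11b to Tnfsf11 (-0.14 to 0.022) and for the log2 fold changes of Tnfrsf12a (-0.039 to 0.042, and -0.0006 without the filter), Tnfrsf19 (-0.062 to 0.034), Tnfrsf1a (-0.034 to 0.0026), Tnfrsf23 (-0.010 to 0.057), Tnfsf18 (-0.13 to 0.014), Fas (-0.013 to 0.052) and Ngfr (-0.12 to 0.044); the cause was not tested. The other ratios kept their sign, at -0.19 to -0.11 for Tnfrsf1b to Tnfrsf1a and 0.048 to 0.23 for Tnfsf13b to Tnfsf13. Same-numbered libraries did not deviate together (correlations of -0.21 to -0.05), so the numbers do not pair them. Between differently numbered libraries of the 2 groups the correlations were -0.14 to 0.22, and whether any of these share a culture was not tested. At this depth the 7 members whose intervals reached beyond 1.5-fold could hide changes of that size.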
